A study of Mus musculus with 3 samples.

Results

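The contacts of the promoters of Klf4 and Klf2 were described in 3 Capture Hi-C (CHi-C) libraries named Sample 3, Sample 4 and Sample 5. Hi-C joins DNA fragments that lie close together in the fixed nucleus, and a di-tag is the pair of read positions from one such junction; in CHi-C the library is then enriched for chosen fragments. A di-tag was taken as a Klf4 di-tag when at least 1 end lay in chr4:55530000-55549999, and as a Klf2 di-tag when at least 1 end lay in chr8:74840000-74849999, both in mm9 coordinates. These windows make up 3 of the regions of 10 kb into which the genome was divided, out of between 240160 and 240654 regions with any di-tag end in a library. All 3 libraries carry the cell type label embryonic stem cells and the strain C57BL/6, and no group differs in treatment, genotype or time. Chromatin of every library was fixed with formaldehyde and cut with HindIII. For Sample 3 the source label names foetal liver cells instead, against its own cell type label, while the study's text describes it as embryonic stem cells too. Results are therefore given by library, and means also without Sample 3. DNA contacts hold no expression markers, so the cell type could not be checked in these lists. Nothing in the labels says whether the libraries came from separate cultures, and the spread between them may be technical.

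Klf4 and Klf2 encode Krüppel-like factors, transcription factors that bind GC-rich DNA through zinc fingers at their carboxyl end. In mouse embryonic stem cells both help to keep the naive pluripotent state, with overlapping functions, and Klf4 is among the factors used to reprogramme somatic cells. A promoter can be regulated by distal enhancers that come near it in the folded chromosome. Klf4 has a known group of stem cell enhancers downstream of the gene, bound by pluripotency factors, and a stretch on that side was compared with the stretch at the same distance on the other side.

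The sequences just upstream of both gene starts are shown because these are the promoters whose contacts were counted. They come from RefSeq in the build GRCm38.p6, whose coordinates differ from those of the di-tags, and cover chr4:55532476-55532725 on the minus strand for Klf4 and chr8:72318812-72319061 on the plus strand for Klf2. Capitals mark the GC box GGGCGG on either strand, a motif of GC-rich promoters; the matches may overlap.
Klf4: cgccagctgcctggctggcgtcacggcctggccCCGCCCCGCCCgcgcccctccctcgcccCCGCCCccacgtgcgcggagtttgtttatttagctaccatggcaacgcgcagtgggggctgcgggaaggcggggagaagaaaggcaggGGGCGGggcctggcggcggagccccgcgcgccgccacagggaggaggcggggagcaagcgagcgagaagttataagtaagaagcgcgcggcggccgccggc
Klf2: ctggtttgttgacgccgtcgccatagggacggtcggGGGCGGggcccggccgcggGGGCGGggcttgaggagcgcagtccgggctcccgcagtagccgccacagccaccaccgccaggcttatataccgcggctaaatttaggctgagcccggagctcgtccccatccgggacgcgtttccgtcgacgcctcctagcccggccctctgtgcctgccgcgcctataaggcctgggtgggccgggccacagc
The 250 bases hold 4 GC boxes for Klf4 and 2 for Klf2, and 32.7% of the 32851 promoters in the RefSeq table hold at least 1. GC content was 74.0% for Klf4 and 71.2% for Klf2, against a median of 52.4% over all promoters. Neither sequence holds the HindIII site AAGCTT, which 6.22% of all promoters hold, so neither is cut within these bases. By gene order in the same build, the nearest protein-coding genes are Rad23b at lower and Actl7b at higher coordinates of Klf4, and Ap1m1 at lower and Eps15l1 at higher coordinates of Klf2. Because Klf4 lies on the minus strand, lower coordinates are downstream of it, whereas for Klf2 they are upstream.

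With duplicates removed, 496 of the 9376907 di-tags of Sample 3 were Klf4 di-tags, against 333 of 8596799 in Sample 4 and 316 of 8821161 in Sample 5. This is 52.9, 38.7 and 35.8 di-tags per 1000000, on average 42.5 ± 9.13 (SD, n = 3 libraries), or 37.3 without Sample 3. Klf2 had 698, 428 and 356 di-tags, or 74.4, 49.8 and 40.4 per 1000000, on average 54.9 ± 17.6, and 45.1 without Sample 3. Klf2 exceeded Klf4 in 3 of 3 libraries although its window is shorter. Klf4 minus Klf2 was -12.4 ± 8.58 di-tags per 1000000 on average, and -7.79 without Sample 3 (two-sided exact sign-flip permutation test over libraries, p = 0.25, the smallest that 3 libraries allow). Sample 3 was highest for both genes, with 1.37 and 1.48 times the Klf4 value of the other libraries and 1.495 and 1.84 times their Klf2 value. Beside this, the share of all ends that lay on chromosome 8, relative to the median autosome, was 1.01 in Sample 3, 1.28 in Sample 4 and 1.28 in Sample 5, so that Sample 3, highest for Klf2, had the lowest share on chromosome 8. For chromosome 4 the values were 1.24, 1.15 and 1.15.

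The depth of the windows was set against regions among the 10% with most di-tag ends in both other libraries. These well covered regions, 22021 for Sample 3, 19666 for Sample 4 and 19967 for Sample 5, served as a stand-in for captured ones. The upper region of the Klf4 window, from 55540000 to 55549999, held 466, 300 and 275 ends, which is 10.6, 6.25 and 5.50 times the median region. The lower region held 45, 50 and 53 ends, close to the median region with 44, 48 and 50. The Klf2 region held 716, 450 and 380 ends, or 16.3, 9.38 and 7.60 times the median. Both the upper Klf4 region and the Klf2 region were well covered by this rule in every library. Among the well covered regions their ends lay above 80.8%, 65.4% and 59.4% of regions for Klf4 and above 95.4%, 89.5% and 82.6% for Klf2.

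Ends did not spread evenly over the windows but lay in a few groups, separated by gaps of more than 500 bp. In the Klf4 window, the group between 55544150 and 55545058 held 276 of 481 ends of single-end di-tags in Sample 3, 110 of 316 in Sample 4 and 122 of 304 in Sample 5. The group between 55548182 and 55549221 held 165, 161 and 136. The first group was read almost always on the minus strand, with 14, 2 and 5 reads on the plus strand, and the second mostly on the plus strand, with 155, 140 and 120. Reads of the first group thus ran downwards and those of the second upwards, away from the stretch between them. The balance between these groups differed between libraries. The lower group made up 57.4% of ends in Sample 3 (exact Clopper-Pearson 95% interval 52.8 to 61.8), 34.8% in Sample 4 (29.6 to 40.3) and 40.1% in Sample 5 (34.6 to 45.9). The interval of Sample 3 did not overlap the others, while those of Samples 4 and 5 did. These and all other intervals cover counting error within 1 library only, not the spread between libraries. The di-tags also carry no molecular identifier.

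In the Klf2 window the group between 74841190 and 74842021 held 341, 188 and 161 ends and the group between 74845440 and 74846256 held 297, 181 and 125. Again the lower group was read mostly on the minus strand and the upper group mostly on the plus strand, with 36, 22 and 13 plus-strand reads against 284, 174 and 121. The lower group made up 50.1%, 46.3% and 48.5% of ends, with overlapping intervals in all libraries. A further, smaller group from 74847007 to 74848060 held 42, 37 and 46 ends. Its share was 6.18% in Sample 3 (4.49 to 8.26), 9.11% in Sample 4 (6.50 to 12.3) and 13.9% in Sample 5 (10.3 to 18.0), and the intervals of Samples 3 and 5 did not overlap.

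**Figure D1:**
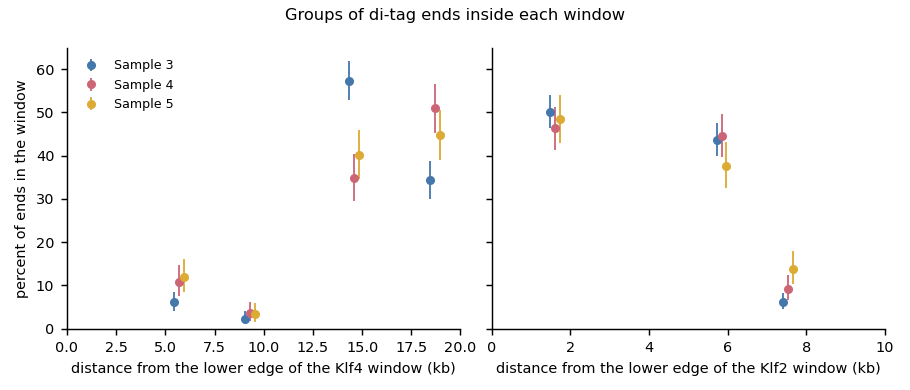
Share of the di-tag ends in each group of ends inside the Klf4 window (left) and the Klf2 window (right), against the distance of the middle of the group from the lower edge of the window in kb. Points are libraries, shifted sideways for clarity, and bars are exact 95% binomial intervals. The lower of the 2 main Klf4 groups holds 57.4% of the ends in Sample 3 and 34.8% and 40.1% in Samples 4 and 5.

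For both genes most di-tags led to another chromosome or to distant parts of the same one. Of the Klf4 di-tags, 47.0% in Sample 3, 63.1% in Sample 4 and 62.7% in Sample 5 were trans, that is, had the other end on another chromosome (57.6% ± 9.17, SD, n = 3; 62.9% without Sample 3). For Klf2 the trans share was 46.1%, 61.9% and 63.8% (57.3% ± 9.69; 62.8% without Sample 3). Both genes had a lower trans share in Sample 3 than in the others, as did the libraries at large: the median well covered region was trans in 48.2%, 64.7% and 69.2% of its di-tags, and all di-tags of a library were trans in 52.0%, 67.4% and 71.6%. In Sample 5, where the libraries' share was highest, the trans share of the upper Klf4 region stood at percentile 6.60 of the well covered regions and that of the Klf2 region at percentile 16.0, against 38.2 and 38.8 in Sample 3 and 46.0 and 31.3 in Sample 4. Sample 3 differed from the others in distant cis di-tags, with the other end on the same chromosome and beyond 1 Mb. These made up 34.5% of the Klf4 di-tags in Sample 3 against 13.5% and 14.2%, and 30.5% of the Klf2 di-tags against 10.7% and 10.96%. The median well covered region had 30.6%, 10.1% and 9.13%, so the excess in Sample 3 was shared by these regions at large. Their share for Klf4 exceeded that for Klf2 in 3 of 3 libraries, by 3.34 ± 0.599 percentage points, or 3.03 without Sample 3 (exact sign-flip permutation test, two-sided p = 0.25).

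Partners outside the window and within 1 Mb made up the smaller part. There were 77 for Klf4 in Sample 3, 61 in Sample 4 and 61 in Sample 5, or 15.5%, 18.3% and 19.3% of its di-tags. Klf2 had 145, 95 and 66, or 20.8%, 22.2% and 18.5%. The difference between the genes was -2.79 ± 3.15 percentage points (Klf4 minus Klf2, SD, n = 3), less than the spread between libraries, with Klf4 lower in Samples 3 and 4 and higher in Sample 5 (exact sign-flip permutation test, two-sided p = 0.50). The mean was -1.56 without Sample 3, -4.56 without Sample 5 and -5.02 ± 1.82 with duplicates retained. The median well covered region had 18.5%, 21.4% and 18.1%. Those regions and the Klf2 window span 10 kb, whereas the Klf4 window spans 20 kb with a poorly covered lower region. The upper Klf4 region alone had 17.5%, 18.8% and 24.1% in Samples 3, 4 and 5. These shares stood at percentile 44.5, 33.5 and 86.7 of the well covered regions. Di-tags with both ends in the window numbered 15, 17 and 12 for Klf4 and 18, 22 and 24 for Klf2.

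**Figure D2:**
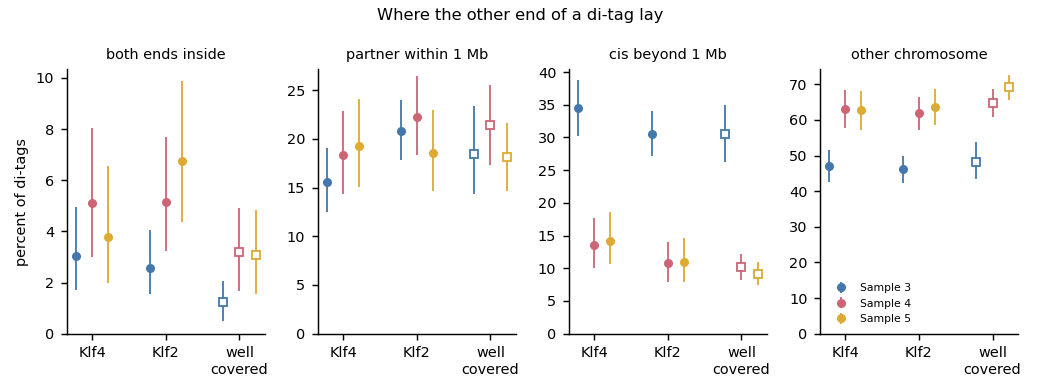
Percent of di-tags whose other end lay inside the window, within 1 Mb of it, further away on the same chromosome or on another chromosome, with a separate vertical axis in each panel. Filled points are the Klf4 and Klf2 windows with exact 95% binomial intervals, and open squares are the median of the well covered regions with the quartiles, by library. For both genes and for the well covered regions, Sample 3 lies above the other libraries in distant cis di-tags and below them in trans di-tags.

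Within 1 Mb the Klf4 partners were densest near the window. Within 20 kb of the window lay 22 of 77, 16 of 61 and 15 of 61 of them (26.5% ± 2.00, SD, n = 3; 25.4% without Sample 3), and within 100 kb 39, 34 and 30 (51.9% ± 3.44; 52.5% without Sample 3). Out of 200 regions of 10 kb within 1 Mb, 47, 38 and 40 held a Klf4 partner, and most of these held exactly 1. Of the 84 regions with a partner in any library, 6 held one in all 3 libraries, 29 in exactly 2 and 49 in exactly 1, so 41.7% recurred in at least 2. The matching share for well covered regions was not computed. The most frequent partner region lay 10 kb above the window in Samples 3 and 4, with 10 and 8 di-tags, and next to the window on the same side in Sample 5, with 10.

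The Klf4 enhancer stretch was taken as chr4:55460000-55489999, from 40 to 70 kb below the window and downstream of the gene. The mirror stretch, chr4:55590000-55619999, lies from 40 to 70 kb above it. Most Klf4 ends lay in the upper region of the window, however. From there the enhancer stretch is 50 to 80 kb away and the mirror stretch 40 to 70 kb. Sample 3 had 0 di-tags that joined Klf4 to the enhancer stretch and 4 that joined it to the mirror. Sample 4 had 5 and 3, and Sample 5 had 2 and 3. The groups of counts overlapped, and no direction was common to the libraries. The enhancer stretch held 0 of the 496 Klf4 di-tags of Sample 3, which allows a share of up to 0.605% by a floor of 3 counts. The share of the enhancer stretch among the di-tags of both stretches was 62.5% in Sample 4 (exact 95% interval 24.5 to 91.5) and 40.0% in Sample 5 (5.27 to 85.3), and in Sample 3 the interval ran from 0% to 60.2%. On the log2 scale, with 0.5 added to each count, the ratio of enhancer over mirror stretch was -3.17, 0.65 and -0.49, on average -1.001 ± 1.96 (SD, n = 3; exact sign-flip permutation test, two-sided p = 0.75). Without Sample 3 the mean was 0.08, so the sign of the mean rested on that library. A mirror at equal distance from the upper region, chr4:55600000-55629999, held 4, 2 and 3 di-tags in Samples 3, 4 and 5. Against it the mean log2 ratio was -0.84 ± 2.18 (SD, n = 3). Against the first mirror, with only the upper region as viewpoint, it was -1.22 ± 1.71. A preference of Klf4 for the enhancer stretch was not detectable at this depth.

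By region, 6 of the 7 di-tags to the enhancer stretch led to its middle region, chr4:55470000-55479999, with 4 in Sample 4 and 2 in Sample 5. That region also held most ends of the stretch, with 175, 106 and 115, against at most 34 in either neighbour. The mirror stretch had 1, 1 and 1 di-tags in its first region, 1, 2 and 0 in the middle one and 2, 0 and 2 in the last. In total the enhancer stretch held fewer ends than the mirror, with 231 against 289 in Sample 3, 160 against 223 in Sample 4 and 162 against 224 in Sample 5. Expected counts were therefore taken from all well covered regions at the same distances and coverage classes. They were 2.19, 2.11 and 1.84 for the enhancer stretch and 3.88, 3.50 and 3.13 for the mirror. The mirror stretch was close to its expected count in every library, with 10 di-tags against 10.5 over all of them. The enhancer stretch was below its expected count in Sample 3, above it in Sample 4 and close to it in Sample 5, with 7 against 6.13 over all libraries and 7 against 3.94 over Samples 4 and 5. The log2 of observed over expected, again with 0.5 added, was -2.43, 1.08 and 0.10, on average -0.42 ± 1.81 (SD, n = 3; exact sign-flip permutation test, two-sided p = 1), and 0.59 without Sample 3. In Sample 4, 2 of the 5 di-tags to the enhancer stretch had their Klf4 end in the lower region of the window, at 55535098 and 55539259, outside the well covered upper region.

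**Figure D3:**
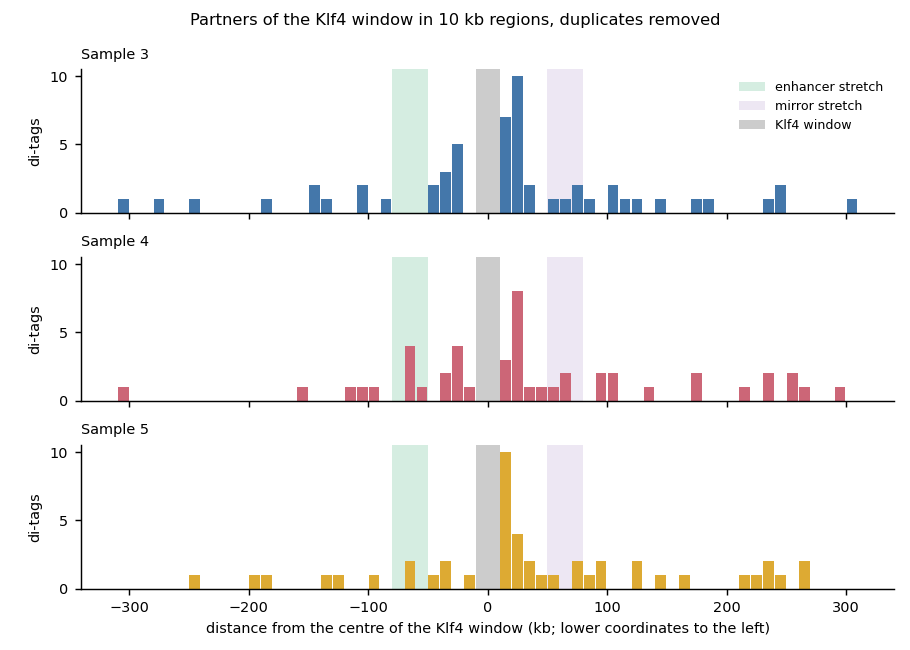
Number of di-tags that join the Klf4 window to each region of 10 kb up to 310 kb from its centre, by library, with lower coordinates to the left. The grey band is the window and the coloured bands are the enhancer stretch (left) and the mirror stretch (right). The enhancer band is empty in Sample 3 and holds 5 and 2 di-tags in Samples 4 and 5, while the mirror band holds 4, 3 and 3.

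Over the whole range Klf4 contacts leaned to higher coordinates, upstream of the gene and towards Actl7b. Leaving out the first 10 kb on each side, 29 partners lay on the lower and 41 on the higher side in Sample 3, 17 and 40 in Sample 4, and 13 and 37 in Sample 5. The lower side was the smaller in 3 of 3 libraries, with a log2 ratio of -1.06 ± 0.51 (SD, n = 3; exact sign-flip permutation test, two-sided p = 0.25, the smallest possible; -1.34 without Sample 3). Distances ran from the edges of the window, and most Klf4 ends lay in its upper region, so that the higher side was nearer to them. Measured from the upper region instead, the counts were 28 and 40, 14 and 34, and 13 and 35, and the ratio was -1.05 ± 0.48 (exact sign-flip permutation test, two-sided p = 0.25). Within 20 kb of the window, where this matters most, 5 partners lay below and 17 above in Sample 3, 5 and 11 in Sample 4, and 1 and 14 in Sample 5. There the flanks also differed in coverage, with 77 trans ends below and 132 above in Sample 3, 66 and 162 in Sample 4, and 63 and 183 in Sample 5, and the part of both in these near counts was not tested. From 20 kb to 200 kb the counts were 12 and 14 in Sample 3, 11 and 12 in Sample 4, and 10 and 13 in Sample 5. From 200 kb to 1 Mb they were 12 and 17 in Sample 3, but 2 and 20 in Sample 4 and 3 and 20 in Sample 5. The lower share at this range was 9.09% in Sample 4 (exact 95% interval 1.12 to 29.2) and 13.0% in Sample 5 (2.78 to 33.6), and 41.4% in Sample 3 (23.5 to 61.1). Over the whole range up to 1 Mb, the trans ends in both flanks, a measure of how well each flank can be seen, were nearly equal, with 3229 below and 3062 above in Sample 3, 3913 and 3947 in Sample 4, and 4141 and 4277 in Sample 5. Among the well covered regions the median log2 ratio from 200 kb to 1 Mb was 0.00 in each library. The upper Klf4 region, with 1 partner below and 17 above in Sample 4, 3 and 19 in Sample 5 and 11 and 16 in Sample 3, stood at percentile 1.12, 4.18 and 29.7 of their ratios. From 20 kb to 1 Mb it stood at percentile 6.51, 5.27 and 23.8 and from 20 to 200 kb at percentile 33.8, 24.6 and 28.1, in the order of Samples 4, 5 and 3. Distances in this comparison ran between the starts of regions, so that 20 kb begins 1 region nearer than from the edge of the window, and the counts from 20 to 200 kb were 17 and 24 in Sample 3, 13 and 17 in Sample 4, and 10 and 16 in Sample 5.

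Of 243 regions of chromosome 4 beyond 1 Mb with a Klf4 partner in any library, 9 (3.70%) recurred in at least 2 libraries. For Klf2 it was 3 of 288 on chromosome 8 (1.04%), and the share for well covered regions was not computed. For Klf4, 5 of the 9 lay together between 56640000 and 56759999 on the higher side, 1.09 to 1.21 Mb from the window. This interval, picked after its values were seen, held 5 Klf4 di-tags in Sample 3, 7 in Sample 4 and 4 in Sample 5. Its last region, chr4:56750000-56759999, was itself well covered in every library, with 639, 536 and 586 ends, and the other 4 were not. From 1 to 1.5 Mb the higher side held 10, 10 and 7 partners in all and the lower side 3, 1 and 1, whereas from 1.5 to 5 Mb the higher side held 21, 7 and 3 and the lower side 14, 1 and 3.

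For Klf2 the counts on the sides had no common direction. Beyond the first 10 kb, 55 partners lay on the lower and 68 on the higher side in Sample 3, 34 and 36 in Sample 4, and 25 and 17 in Sample 5. The log2 ratio was 0.05 ± 0.44 (SD, n = 3; 0.23 without Sample 3; exact sign-flip permutation test, two-sided p = 1), with Sample 5 on the opposite side of 0 from the others. Around Klf2 the flanks themselves were unequal, with 7277 trans ends below and 4309 above in Sample 3, 10399 and 6758 in Sample 4, and 11081 and 7243 in Sample 5. Set relative to these ends, the log2 ratio became -0.61 ± 0.50, or -0.39 without Sample 3, with -1.06 in Sample 3, -0.70 in Sample 4 and -0.07 in Sample 5 (exact sign-flip permutation test, two-sided p = 0.25). The same ratio for Klf4 was -0.57, -1.20 and -1.43, so Klf2 was the more unequal in Sample 3 and Klf4 in Samples 4 and 5, and the difference between the genes was not tested. In these ratios the trans ends were summed over the whole flank, without weight by distance. Only 17, 11 and 2 Klf2 partners lay from 500 to 1000 kb, in the order of Samples 3, 4 and 5. Whether the lean of Klf2 holds with coverage weighted by distance was not tested. Further out, from 1.5 to 5 Mb, Klf2 had 29 partners below and 3 above in Sample 3, but only 3 and 0 in Sample 4 and 6 and 3 in Sample 5.

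**Figure D4:**
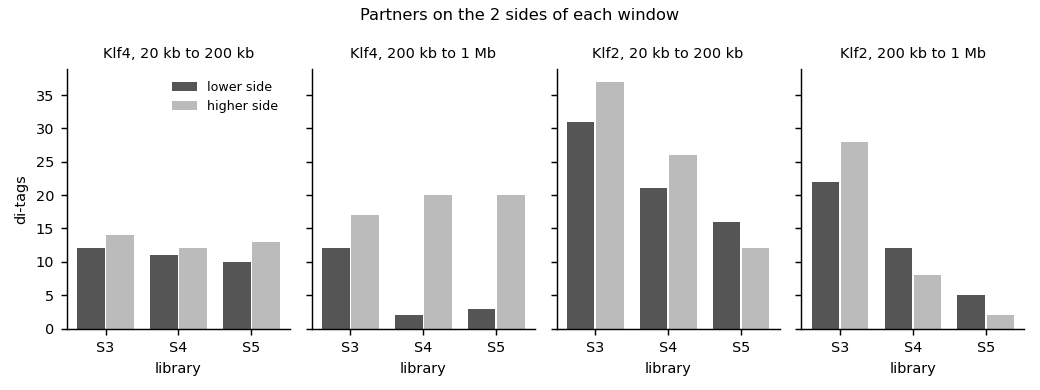
Number of partners on the lower (dark) and higher (light) side of the Klf4 and Klf2 windows in each library, from 20 kb to 200 kb and from 200 kb to 1 Mb. From 200 kb to 1 Mb, Klf4 has 2 and 20 partners in Sample 4 and 3 and 20 in Sample 5, but 12 and 17 in Sample 3.

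Klf2, like Klf4, had regions on both sides that held a partner in every library. Of 200 regions within 1 Mb, 60, 40 and 24 held a Klf2 partner, 11 in all 3 libraries, 21 in exactly 2 and 49 in exactly 1, so 39.5% of the 81 with a partner recurred in at least 2, close to the share for Klf4. The share for well covered regions at this range was not computed, so recurrence here is not shown to be particular to either gene. Of the 11 regions, 6 lay below and 5 above the window. At 20 kb or more there were 7, of which 4 lay from 20 to 70 kb below the window, upstream of Klf2. The region chr8:74770000-74779999 had 5, 5 and 4 di-tags, chr8:74800000-74809999 had 6, 4 and 4, chr8:74790000-74799999 had 3, 3 and 3, and chr8:74810000-74819999 had 5, 4 and 2. On the higher side chr8:74870000-74879999 had 8, 3 and 1, chr8:74910000-74919999, as far from the window as the first, had 4, 3 and 1, and chr8:75040000-75049999 had 3, 1 and 1. Klf4 had 4 such regions at 20 kb or more. The highest by its smallest count, chr4:55500000-55509999, had 3, 2 and 2, and the others were chr4:55570000-55579999 with 2, 1 and 2, chr4:55770000-55779999 with 1, 2 and 2, and chr4:55590000-55599999 with 1, 1 and 1.

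The range of Klf2 contacts differed between libraries more than that of Klf4. Within 20 kb of the window lay 18.6% of its partners within 1 Mb in Sample 3, 29.5% in Sample 4 and 47.0% in Sample 5 (31.7% ± 14.3, SD, n = 3; 38.2% without Sample 3). Within 100 kb the Klf2 shares were 44.8%, 64.2% and 80.3% (63.1% ± 17.8; 72.3% without Sample 3). Those of Klf4 were 50.6%, 55.7% and 49.2%. From 100 to 500 kb there were 30 and 33 partners in the 2 distance classes of Sample 3 (100 to 200 kb and 200 to 500 kb), 14 and 9 in Sample 4 and 6 and 5 in Sample 5. In Sample 3, 46.2% of the Klf2 partners within 1 Mb lay in well covered regions (exact 95% interval 37.9 to 54.7), against 24.2% in Sample 4 (16.0 to 34.1) and 18.2% in Sample 5 (9.76 to 29.6). For Klf4 the shares were 14.3%, 13.1% and 8.20%. The flanks differed, however. Within 1 Mb of Klf4 only chr4:55560000-55569999 was well covered in every library, whereas many regions around Klf2 were. That region held 10, 8 and 4 of the 11, 8 and 5 Klf4 partners in question. The shares were not set against the number of well covered regions in each flank. Well covered regions were also defined for each library from both other libraries, so the shares were counted over different regions. For example, chr8:74770000-74779999, with 5 Klf2 di-tags in Sample 3, was well covered in 1 library only. The shares therefore compare neither the genes nor the libraries. Among the distant cis partners of Sample 3, 38.5% of those of Klf2 (31.9 to 45.4) and 15.2% of those of Klf4 (10.2 to 21.5) lay in well covered regions, against 30.3% for all well covered regions. The other libraries had no common order, with 19.6% for Klf2 and 24.4% for Klf4 against 24.5% in Sample 4, and 28.2% and 13.3% against 24.3% in Sample 5. The number of well covered regions on each gene's chromosome was not taken into account, so these distant shares do not compare the genes either. Of the trans partners, 18.5%, 17.1% and 18.7% lay in well covered regions for Klf4 and 18.9%, 18.1% and 17.6% for Klf2, against 23.9%, 18.8% and 18.4% for all well covered regions. In Sample 3 the exact 95% interval was 13.7 to 24.04 for Klf4 and 14.8 to 23.7 for Klf2, and the latter lay just below the value for all well covered regions.

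**Figure D5:**
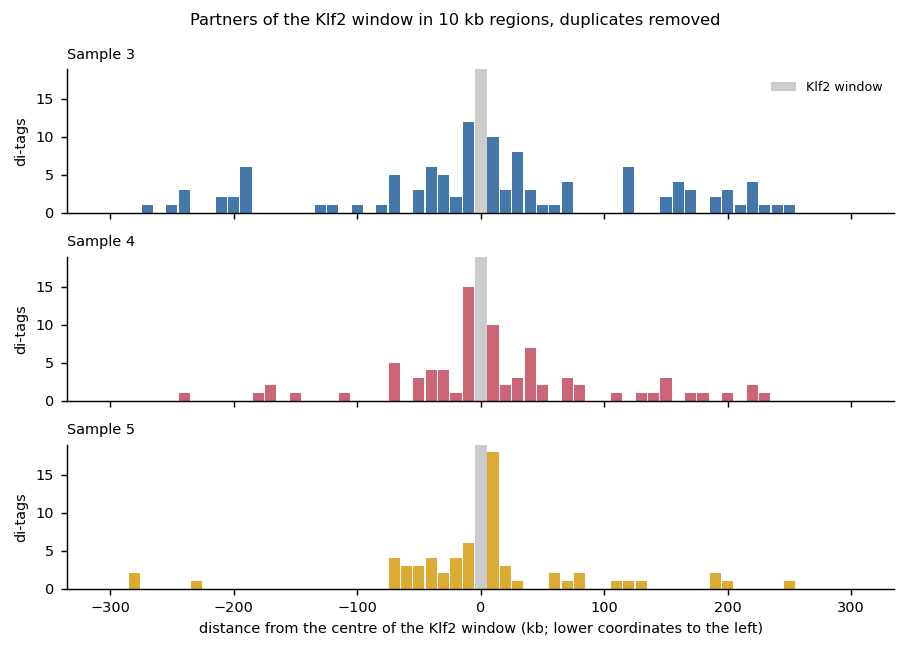
Number of di-tags that join the Klf2 window to each region of 10 kb up to 305 kb from its centre, by library, with lower coordinates to the left and the window as a grey band. Regions on both sides recur in the libraries, and Sample 3 has more partners beyond 100 kb than Samples 4 and 5.

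Each region pair was tested against a count expected from distance, coverage class and the total of the viewpoint, with a negative binomial test per library over all well covered viewpoints and Benjamini-Hochberg adjustment. At an adjusted p under 0.05 in at least 2 libraries, 0 partner regions of Klf4 and 0 of Klf2 were called, where 5.69e-05% of all pairs were called (2 of 3514417). By library, 0%, 0.000439% and 0.000891% of all pairs were called. Without adjustment, 4, 2 and 6 of the 188 pairs of the upper Klf4 region and 3, 5 and 5 of the 185 pairs of the Klf2 region had a p under 0.05 by the negative binomial test, or 1.06% to 3.19% of the pairs, near the 1.90%, 1.96% and 1.94% of all pairs, and the smallest adjusted p was 1 for either. The first of the Klf2 regions named above, chr8:74770000-74779999, had 5, 5 and 4 di-tags against expected counts of 2.55, 1.20 and 0.716. It was called in 0 libraries by the negative binomial test and, as it was chosen by these counts, its p-values are left out. With a Poisson distribution in place of the negative binomial, 0.00622%, 0.00847% and 0.00805% of all pairs were called by library, and 0 regions of either gene in at least 2. With libraries summed before the test, 0.00122% of all pairs were called over all 3 libraries and 0.00161% over Samples 4 and 5, again with 0 for both genes. With duplicates retained, where copies of 1 di-tag count as several, 1.79%, 1.99% and 1.74% of all pairs were called by library, and 0 regions of either gene in at least 2. A binomial test that takes no account of distance called 0.00042%, 0.000513% and 0.000425% of all possible pairs of the genome. Among pairs of a well covered region with a region from 20 kb to 1 Mb away it called 2.2%, 2% and 1.45% by library and 1.17% in at least 2 libraries. In the same range from 20 kb to 1 Mb it called 2 partner regions of Klf4 in at least 2 libraries, chr4:55510000-55519999 and chr4:55560000-55569999, the next but 1 to the window on either side, or 1.09% of the 184 pairs of the upper Klf4 region. Of Klf2 it called 8, or 4.35% of 184, among them chr8:74770000-74779999, chr8:74790000-74799999 and chr8:74800000-74809999 in all 3. Apart from chr4:55510000-55519999, with 5, 4 and 0 di-tags in Samples 3, 4 and 5, these regions had been named above by the same counts. The calls of all of them rest on these counts and are no separate support. The middle region of the Klf4 enhancer stretch was called by this test in Sample 4 alone, on 2 of the 4 di-tags. These 2 had their Klf4 end in the lower region of the window, outside the well covered upper region. The counts behind these tests were small: 68, 48 and 48 di-tags of the upper Klf4 region and 123, 70 and 42 of the Klf2 region were spread over the tested range.

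Few trans partners recurred, for these genes as for well covered regions at large. Klf4 had partners in 635 regions of other chromosomes, of which 1 was seen in 2 libraries, and Klf2 in 798, of which 0 were, or 0.157% and 0%. Over the 18949 regions well covered in every library, 0.171% of the trans partner regions were seen in at least 2. The recurring region, chr12:80790000-80799999, held 1 Klf4 di-tag in Sample 3 and 1 in Sample 4. No di-tag joined the Klf4 and Klf2 windows to each other: 0 of the 698, 428 and 356 Klf2 di-tags did, which allows shares of up to 0.430%, 0.701% and 0.843%. Exactly the same di-tag was found in 2 libraries for neither gene, with 0 identical di-tags in each of the 3 comparisons.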

How the data were processed

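CHi-C di-tags of Samples 3, 4 and 5 were used. The authors deposited base positions, one di-tag per line with no other score or measured level, after read truncation, separate mapping of both reads, re-pairing of unique alignments and artefact filtering with HiCUP. The submitters' processing notes name mm9 and Bowtie 1.1.0. The lists with duplicates removed were the main data, and those with duplicates retained an alternative. Windows, partners and 10 kb regions were counted with Python 3.11.15, NumPy 2.4.6 and SciPy 1.17.1. No mm9 gene annotation was used here.

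Pairs from 20 kb to 1 Mb were tested from each well covered viewpoint. The expected count was the mean share by distance and by 5 coverage classes of the partner (trans ends), scaled to the viewpoint, with 1 dispersion per library between 0.283 and 0.309. The model was run on counts simulated from its own fit to Sample 4, with 200 pairs of low expected count raised. It recovered 77.5% of them with 5 added di-tags and 100% with 10. This checks neither the fit to the data nor pairs near the genes with higher expected counts. CHiCAGO, which needs fragment and bait maps, was not run. Comparisons over libraries used two-sided exact sign-flip permutation tests. Regions were named if called, or if among the 5 highest by the smallest count, ties going to the larger sum; others with a di-tag in every library were added after their values were seen. The genes, the stretch and the lists were chosen with earlier results of these data known. Values are given for n = 3 libraries of 1 group. Alternatives changed duplicates, viewpoint, mirror, coverage, distance, threshold, distribution, region size and libraries.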

Additional observations from a re-analysis of the deposited data

How the results depend on the processing

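Results are limited by depth: the Klf4 enhancer stretch received 0 to 5 di-tags per library, and no sign-flip test over 3 libraries can pass 0.05. Leaving out each library in turn gave log2 ratios of the Klf4 enhancer over the mirror stretch between -1.83 and 0.083, of the enhancer stretch over its expected count between -1.17 and 0.59, and of the Klf2 sides between -0.19 and 0.23. In the first 2 the sign changed without Sample 3, and for the Klf2 sides without Sample 5. The Klf2 side ratio also changed sign with counts over the trans ends of the whole flanks (-0.61) and for partners from 20 kb to 200 kb (-0.051). The Klf4 side ratio kept its sign in every alternative run, between -2.02 and -0.23. With duplicates retained, the values rose to 62.5 di-tags per 1000000 for Klf4 and 98.9 for Klf2, and the log2 ratio of the enhancer stretch moved to -1.71 over the mirror and to -1.53 over its expected count. The first was -0.48 with counts over trans ends, and the second -0.90 with distance alone in the expected count. The count of called partner regions moved from 0 to 2 for Klf4 and to 8 for Klf2 under the binomial test without distance. That test omits the decline with distance by construction, but it also differs in distribution, coverage classes and the set of pairs tested. The part of each in the move was not tested. The count stayed at 0 in all other alternatives. These include libraries summed before the test (3, or Samples 4 and 5), an alternative chosen after seeing the data. The causes of the other changes were not tested either. No pairing of libraries between groups was possible because all libraries belong to 1 group and no groups share replicate numbers. Both genes, both sides and both stretches were compared within each library, and the sign-flip tests used these paired differences.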

Other observations

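In the lists with duplicates retained, the di-tags of both genes had more copies than the library at large. In the order of Samples 3, 4 and 5, the mean number of copies was 10.9, 8.09 and 7.41 for a distinct Klf4 di-tag and 12.4, 10.4 and 9.97 for a distinct Klf2 di-tag, against 7.22, 5.70 and 5.18 over all distinct di-tags. The most copied Klf2 di-tags had 66, 62 and 45 copies and the most copied Klf4 di-tags 52, 37 and 35. Single-copy di-tags made up 20.2%, 27.8% and 26.1% for Klf4 and 14.8%, 18.6% and 22.2% for Klf2, against 42.4%, 49.4% and 50.9% in the libraries. The copies of di-tags from well covered regions were not computed, so the excess is not shown to be particular to these genes.

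Trans partners of Klf4 lay on chromosome 8 in 5.15%, 6.67% and 6.06% of cases, where 5.53%, 7.14% and 7.11% of all ends off chromosome 4 lay. Trans partners of Klf2 lay on chromosome 4 in 6.52%, 6.79% and 2.20% of cases, where 6.70%, 6.49% and 6.43% of all ends off chromosome 8 lay. The value of Sample 5 rests on 5 of 227 di-tags (exact 95% interval 0.719 to 5.07).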
